A study of Mus musculus with 7 samples.

Results

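Transcripts of 36 genes that carry cargo between the endoplasmic reticulum (ER) and the Golgi apparatus were followed in calreticulin knockout and wild type mouse embryonic stem cells. The 36 genes were taken by name from the subunits of the COPI and COPII vesicle coats, the p24 family, the KDEL receptors, the lectin and other cargo receptors, and the ER-Golgi SNAREs. They were covered by 72 of the 45101 probe sets on the array, and all 36 had at least 1 probe set with their symbol, among 18193 genes so represented. RNA came from 5 samples of knockout cells, deficient in calreticulin, the calcium-binding chaperone of the ER lumen encoded by Calr, and from 2 samples of wild type cells. Both groups were of the established embryonic stem cell line D3, and each of the 7 libraries was a pool of replicate cultures, hybridised to its own Affymetrix mouse expression array. The labels give neither the age of the cultures nor whether the knockout libraries came from 1 clone or several, and no treatment is named. The comparison asks which transcripts differ when calreticulin is missing.

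COPII coats bud vesicles from the ER. The small GTPase Sar1 recruits the inner coat of Sec23 and Sec24, which binds cargo, and the outer cage of Sec13 and Sec31 shapes the bud. COPI coats, built from the coatomer subunits, carry escaped ER proteins and membrane back from the Golgi. KDEL receptors retrieve soluble ER chaperones, calreticulin among them, by their carboxy-terminal signal. The p24 proteins and the lectins Lman1 and Lman2 span the membrane and sort cargo into the vesicles, and SNARE proteins drive fusion.

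No vesicle traffic gene passed the test between knockout and wild type libraries. Of 62 member probe sets bright enough to be tested, 0 passed a limma adjusted p of 0.05, against 0.0296% of all 27022 probe sets tested. In 4 of the 62 the unadjusted limma p was under 0.05, beside 8.06% of all genes by their brightest probe set. With the brightest probe set for each gene, 0 of 35 tested members passed, against 0.0152% of 13120 genes. An unadjusted limma p under 0.05 was found for 1 member higher in the knockout, Tmed7, and 1 lower, Sec31a, against 4.66% and 3.4% of all genes, or 8.06% in either direction. The median log2 difference, knockout minus wild type, was -0.07 over the 35 members and -0.0041 over all genes tested, with 16 members positive and 19 negative (all genes 49.7% positive and 50.3% negative). The median 95% confidence interval of a member reached 0.81 to either side of its difference. With 2 wild type arrays, log2 differences smaller than that mostly could not reach even an unadjusted p of 0.05. Under the adjusted threshold larger differences were not called either, such as Tmed5 at 1.18 (limma adjusted p = 0.592).

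The near-zero median hid a division by role. Coat subunits had a median log2 difference of -0.46 for COPI (6 of 8 negative) and -0.30 for COPII (7 of 10 negative), and the 4 SNAREs were all negative (median -0.47). Cargo receptors (0.38, 4 of 4 positive), tested p24 proteins (0.36, 4 of 6 positive) and KDEL receptors (0.36, 3 of 3 positive) lay on the other side, each gene by its brightest probe set. Over all tested probe sets the negative side was less marked, with 5 positive and 8 negative for COPI, 6 and 7 for COPII and 3 and 5 for SNAREs. For cargo receptors they were 11 and 1, for p24 proteins 10 and 2 and for KDEL receptors 3 and 1. With array medians centred, Mcfd2 and Kdelr2 became slightly negative (-0.051 and -0.033), as did Copb1 and Sar1a (-0.013 and -0.038). These medians are descriptions without a test, and the positive ones rested on 2 of the 5 knockout libraries. Without knockout libraries 2 and 3 the medians were -0.30, -0.25 and -0.27 for COPI, COPII and SNAREs, and -0.08, 0.03 and -0.42 for cargo receptors, p24 proteins and KDEL receptors.

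Knockout libraries 2 and 3 stood apart from the rest of the arrays over all probe sets. Their mutual r was 0.985 across tested probe sets, which are not independent replicates. Their correlation with the remaining 5 was 0.843 to 0.902, and r among those 5 was 0.920 to 0.972. Their log2 ratios of 3' to 5' Actb control signal were 0.79 and 0.89, against 1.46 to 2.08 in the other 5 libraries. For Gapdh these ratios were -0.31 and -0.27, near knockout library 1 at -0.17. There knockout library 4 (1.32) and wild type library 2 (0.77) stood highest. Fibroblast and feeder cell markers also differed in knockout libraries 2 and 3. The summed signal of all 27 such markers was 40929 and 40589 in knockout libraries 2 and 3 and 18139 to 25266 in the other knockout libraries, against 27675 and 32074 in wild type libraries. Fn1, the brightest of the 27, stood at 15808 and 17283 in knockout libraries 2 and 3 and 6582.5 to 11433.5 in the other 5. Acta2 and Sparc were highest in the wild type libraries. Knockout libraries 2 and 3 both lay above the other 5 for 15 of the 27 markers and below for 1, against 24.6% and 26% of all genes tested. Dcn, encoding the matrix proteoglycan decorin, had signals of 552 and 555 in them, 13.4 to 14.5 in the other knockout libraries and 27.5 and 55.6 in wild type libraries. No fibroblast marker was listed at 0 in any library. All 12 stem cell markers stayed above the array median in every library. Knockout libraries 2 and 3 lay above the other 5 for 3 of the 12 and below for 4, near those shares over all genes. Pou5f1 stood at 4891 and 4687 in these libraries and 8770 to 11726 in the other 5, while Tdgf1 stood at 14287 and 15929 in these libraries and 10428.0 to 11867 in the other 5. The part of these differences in the results was not tested, and in bulk RNA fewer cells of a type and less RNA per cell cannot be told apart. Calr itself, which checks the labels, had a signal of 912 ± 205 (SD, n = 5) in knockout and 11650 ± 1146 (SD, n = 2) in wild type libraries (log2 difference -3.68, limma adjusted p = 0.00531 over genes). That call was lost with a lone wild type library, at adjusted p = 0.176 without wild type library 1 and 0.137 without library 2.

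**Figure D1:**
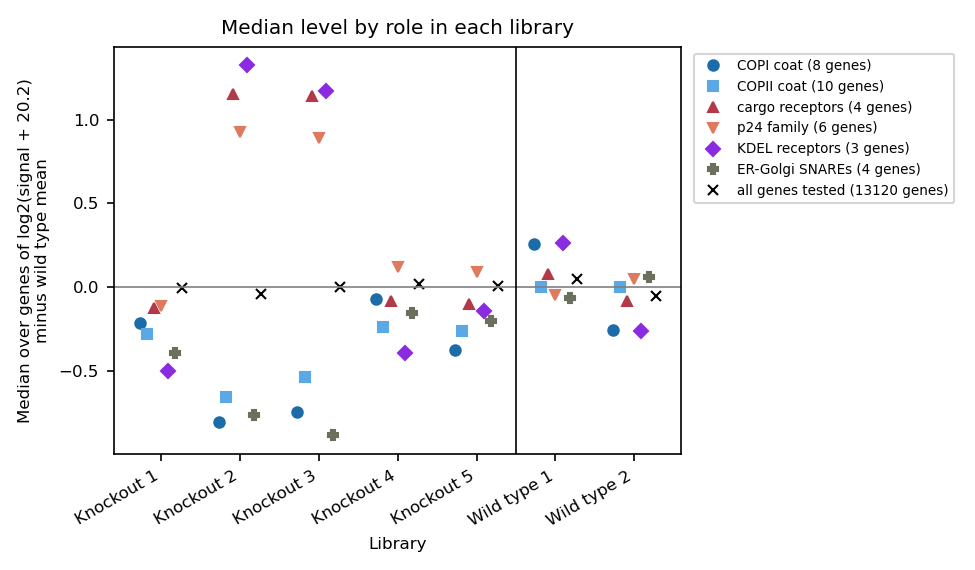
Median over the tested genes of each role of log2(signal + 20.2) minus the wild type mean, for each of the 7 libraries, knockout on the left and wild type on the right. Cargo receptors, p24 proteins and KDEL receptors stand at 0.89 to 1.32 in knockout libraries 2 and 3, where COPI, COPII and SNARE genes stand at -0.88 to -0.54.

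In knockout libraries 2 and 3 the members divided by role. Both libraries lay above all other 5 for 13 of the 13 tested cargo receptors, p24 proteins and KDEL receptors, and for 2 of the 18 coat subunits, both of them Sar1 GTPases. Over all genes that share was 24.6%. Both lay below all other 5 for 9 of the 18 coat subunits, 2 of the 4 SNAREs and 0 of the 13 others, against 26% of all genes. Counts by probe set follow, which measure the same genes on the same arrays again and are no separate support. All 28 tested probe sets of the 13 cargo-handling genes were above in both libraries, and 12 of the 26 of the coats were below, with 3 above. Of the 8 tested SNARE probe sets 2 were below and 0 above. The cargo-handling roles were pooled after their values were seen, so these counts carry no test.

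Setting the members beside other gene groups showed that neither direction was limited to vesicle genes. Of 25 tested genes for the ER translocon and oligosaccharyltransferase, which put proteins into the ER and glycosylate them, 22 lay above in both libraries and 2 below, with a median of 0.84 and 0.80 above the wild type mean. Of 31 constitutive proteasome subunit genes, whose products work in the cytosol and nucleus, 26 lay below and 0 above (-0.81 and -0.94). The median of all genes was -0.04 and 0.00 in the same libraries. No test of a difference between these lists was made.

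**Figure D2:**
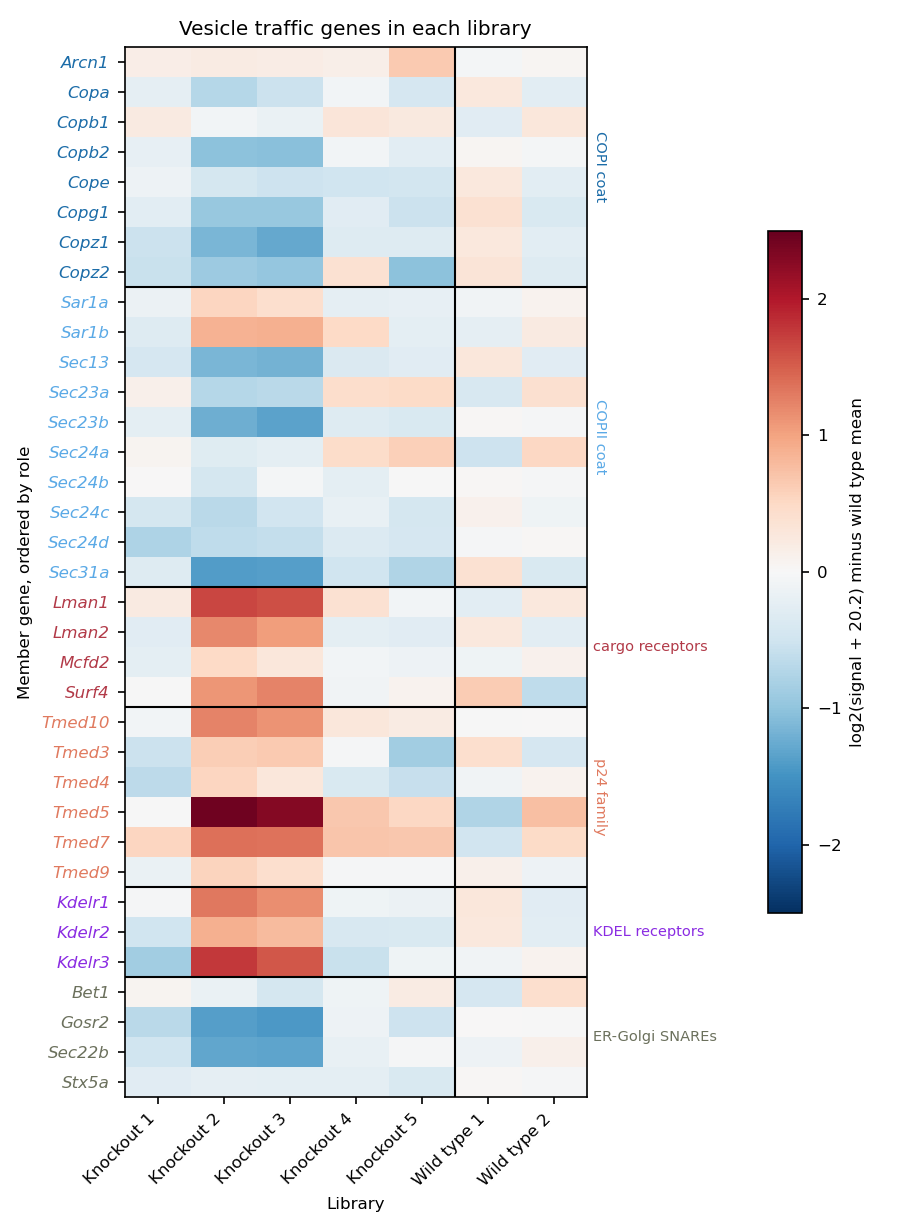
Level of each tested member (rows, grouped by role) in each library (columns, knockout left and wild type right), as log2(signal + 20.2) minus the wild type mean of that gene. Red marks levels above the wild type mean, up to 2.42 for Tmed5 in knockout library 2, and blue marks levels below it, down to -1.44 for Gosr2 in knockout library 3.

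Promoters of the members were read from RefSeq (GRCm38.p6), where 31 of the 36 had a window. Fixed letters were searched on both strands in the 250 bases before each start site. They were TGACGTGG, the unfolded protein response element (UPRE) bound by Xbp1 and Atf6, TGACGTCA, the cyclic AMP response element (CRE), and ACGTG, the core within the UPRE. The UPRE letters stood before 3 of the 31 members, Kdelr3, Copb1 and Sec24d, and before 0.603% of all 27025 genes. The CRE letters stood before Cope and Gosr2, against 1.77% of all genes, and the core before 14 members, against 18.5% of all genes. The sequences of the 3 members with the UPRE are shown because they come from 3 different roles, and that of Tmed10 because it is 1 of 3 members with 3 matches to the core. They run 5′ to 3′ on the gene's strand and end at the base before the start site, with UPRE and core letters in capitals on either strand. The palindrome CACGTG counts as 2 overlapping core matches. The windows are chr15:79516158-79516407, plus strand for Kdelr3, chr7:114254681-114254930, minus strand for Copb1, chr3:123267246-123267495, plus strand for Sec24d and chr12:85374718-85374967, minus strand for Tmed10.
Kdelr3: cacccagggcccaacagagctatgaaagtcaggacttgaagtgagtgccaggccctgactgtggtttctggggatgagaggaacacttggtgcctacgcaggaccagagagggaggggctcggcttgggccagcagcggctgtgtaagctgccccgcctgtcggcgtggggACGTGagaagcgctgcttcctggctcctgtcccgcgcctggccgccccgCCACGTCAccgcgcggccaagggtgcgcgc
Copb1: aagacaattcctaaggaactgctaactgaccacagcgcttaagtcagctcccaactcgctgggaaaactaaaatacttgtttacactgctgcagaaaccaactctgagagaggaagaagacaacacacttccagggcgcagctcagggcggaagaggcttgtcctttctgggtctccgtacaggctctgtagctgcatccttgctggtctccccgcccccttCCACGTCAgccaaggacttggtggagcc
Sec24d: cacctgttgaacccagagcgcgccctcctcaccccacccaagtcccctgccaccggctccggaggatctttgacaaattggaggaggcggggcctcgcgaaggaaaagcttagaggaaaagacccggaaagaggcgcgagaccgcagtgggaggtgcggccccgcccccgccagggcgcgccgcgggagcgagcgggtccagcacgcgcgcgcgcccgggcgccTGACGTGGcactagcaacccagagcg
Tmed10: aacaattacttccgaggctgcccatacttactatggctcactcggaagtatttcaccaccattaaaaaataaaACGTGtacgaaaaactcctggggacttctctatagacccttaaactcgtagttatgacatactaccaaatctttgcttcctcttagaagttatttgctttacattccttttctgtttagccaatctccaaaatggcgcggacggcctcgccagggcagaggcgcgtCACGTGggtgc
The UPRE letters lay 23 to 30 bases before the start of Kdelr3, 21 to 28 bases before that of Copb1 and 19 to 26 bases before that of Sec24d. These 3 genes did not share a pattern across libraries. Kdelr3 had signals of 194, 1312, 1118, 247 and 343.5 in knockout libraries 1 to 5, against 346 and 395 in wild type libraries 1 and 2. Copb1 had signals of 2601, 2113, 1985, 2745.5 and 2626 in knockout libraries 1 to 5, against 1815 and 2726.5 in wild type libraries 1 and 2. Knockout libraries 2 and 3 were thus the highest of all for Kdelr3, while for Copb1 they lay between the wild type libraries. A match of letters is a description and not evidence of binding.

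Of the 8 COPI subunits 6 had negative differences, and Arcn1 and Copb1 positive ones. The groups did not overlap for Copb2 and Copz1 (lower in the knockout, against 7.44% of all genes) and Arcn1 (higher, against 6.41%). Copz1, encoding the zeta subunit, had signals of 2315, 1507, 1376, 2703 and 2673 in knockout libraries 1 to 5, against 4042 and 2804 in wild type libraries 1 and 2. Every knockout value was under both wild type values, with libraries 2 and 3 the lowest, and the log2 difference was -0.72 (SE 0.35, limma adjusted p = 0.589). A second, dim probe set of Copz1 had a difference of 0.28 and signals of 34.2 to 189.7 in knockout libraries, against 45.1 and 68.3 in wild type libraries, so its probe sets disagreed in sign. Copb2, the beta' subunit that binds retrieval signals on cargo, had signals of 3745, 2103, 2083, 4080.0 and 3557 in knockout libraries 1 to 5, against 4432 and 4155 in wild type libraries 1 and 2. Its groups did not overlap either, but the value of knockout library 4 was close to that of wild type library 2. The difference was -0.52 (SE 0.33, limma adjusted p = 0.60) over all libraries and -0.18 without knockout libraries 2 and 3. In its dimmer probe set the groups overlapped, with knockout libraries 4 and 5 (2698.2 and 2617) above both wild type values (2196.5 and 2548.8). That probe set differed by -0.37, or 0.01 without knockout libraries 2 and 3.

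Copa, the alpha subunit, which also binds retrieval signals, had signals of 3797, 2731, 3074, 4252 and 3330.0 in knockout libraries 1 to 5, against 5334 and 3734 in wild type libraries 1 and 2, and the groups overlapped. Its difference was -0.39 (SE 0.27, limma adjusted p = 0.614). Arcn1, the delta subunit, had the opposite sign, with signals of 3929, 4072, 4009, 3912 and 5540.5 in knockout libraries 1 to 5, against 3377 and 3660.4 in wild type libraries 1 and 2. Every knockout value was above both wild type values, with library 5 far above the other 4, and the difference was 0.27 (SE 0.24, limma adjusted p = 0.681). All 3 tested Arcn1 probe sets had a positive difference, of 0.02 to 0.27. Of the other COPI genes, Copg1 (gamma, -0.59), Cope (epsilon, -0.41) and Copz2, a second zeta isoform (-0.61), were negative and Copb1 (beta, 0.11) positive, with adjusted p from 0.589 to 0.888, and their groups overlapped.

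Among COPII subunits, 4 of the 10 had lower values in every knockout library than in either wild type library, Sec23b, Sec24c, Sec24d and Sec13, against 7.44% of all genes. Sec24d, a cargo-binding subunit of the inner coat, had signals of 788, 874.5, 899.6, 1077.5 and 1014.5 in knockout libraries 1 to 5, against 1335 and 1396 in wild type libraries 1 and 2. The groups did not overlap, and libraries 2 and 3 were in the middle of the knockout range. The means were 931 ± 115 (SD, n = 5) in knockout libraries and 1365 ± 42.9 (SD, n = 2) in wild type libraries, and the difference of -0.55 (SE 0.25, limma adjusted p = 0.589) was -0.51 without libraries 2 and 3. Sec24c, another Sec24 isoform, had signals of 2642, 2228, 2551, 3135 and 2645 in knockout libraries 1 to 5, against 3877 and 3311 in wild type libraries 1 and 2, again without overlap. Its difference was -0.45 (SE 0.24, limma adjusted p = 0.589). The other Sec24 isoforms overlapped between groups. Sec24a had a difference of 0.12. Sec24b had signals of 940.5, 687, 898, 780.1 and 924 in knockout libraries 1 to 5, against 952 and 914 in wild type libraries 1 and 2, and a difference of -0.15. The dimmer probe set of Sec24b stood at 0.96, with signals of 99.0 to 258.2 in knockout libraries, against 153.8 and 44.1 in wild type libraries.

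Sec13 and Sec31a, the outer cage, had negative differences. Sec13, which also serves the nuclear pore, had signals of 2511, 1523, 1469.9, 2639.6 and 2764 in knockout libraries 1 to 5, against 4093 and 2788 in wild type libraries 1 and 2. The knockout values all lay below the wild type values, by a narrow gap to wild type library 2, and the difference was -0.68 (SE 0.34, limma adjusted p = 0.589). Sec31a had signals of 2441.5, 1143, 1167, 2162 and 1795 in knockout libraries 1 to 5, against 3944.5 and 2347 in wild type libraries 1 and 2. Here knockout library 1 lay above wild type library 2, so the groups overlapped, and the difference of -0.87 (SE 0.38, limma adjusted p = 0.589) had a 95% confidence interval of -1.72 to -0.01. Without knockout libraries 2 and 3 it was -0.52.

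The paralogs of the inner coat and its GTPase differed in pattern. Sec23b had signals of 4417, 2246, 2050.0, 4191 and 4048 in knockout libraries 1 to 5, against 5358 and 5129.7 in wild type libraries 1 and 2, with no overlap. Its difference was -0.70 (SE 0.36, limma adjusted p = 0.589). Its paralog Sec23a, the other activator of the Sar1 GTPase, had a difference of -0.07, which was 0.35 without knockout libraries 2 and 3, and its groups overlapped. Sar1a had signals of 3306, 5300.4, 4879, 3119 and 3156 in knockout libraries 1 to 5, against 3406 and 3886 in wild type libraries 1 and 2. Libraries 2 and 3 were the highest of the 7 for Sar1a and, at 5234 and 5324, for Sar1b, and the differences were 0.08 (SE 0.29, limma adjusted p = 0.923) and 0.34 (SE 0.39, limma adjusted p = 0.747). The Sar1 genes were the coat members that went with the cargo receptors in these libraries.

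**Figure D3:**
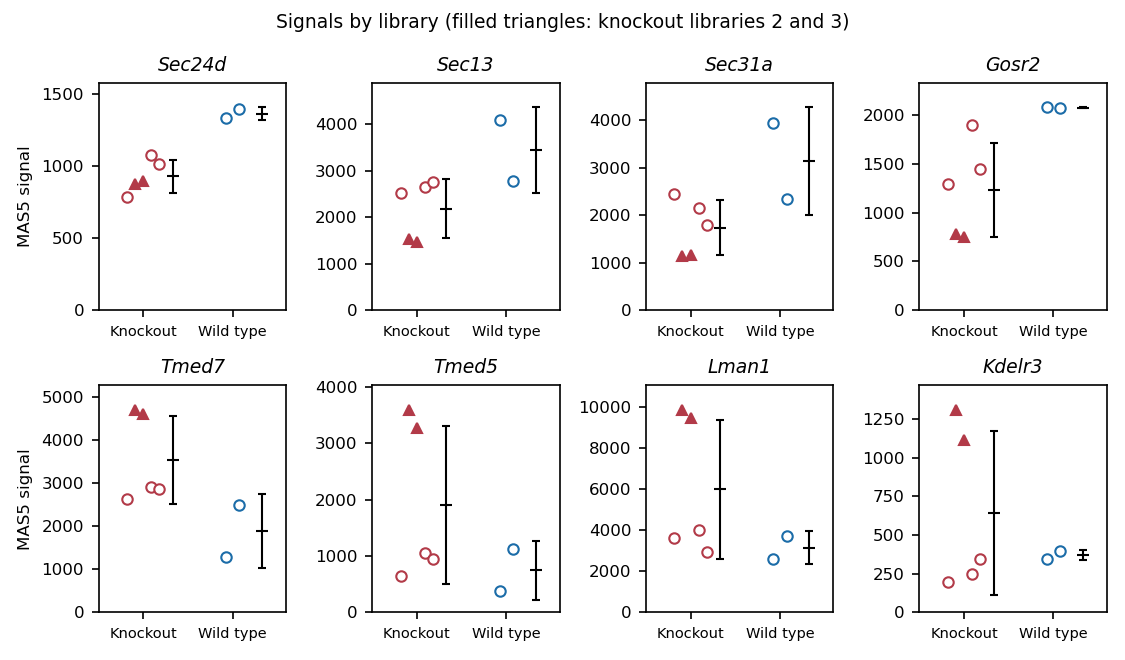
MAS5 signals (linear scale from 0) of 8 members, with the 5 knockout libraries on the left and the 2 wild type libraries on the right of each panel; filled triangles are knockout libraries 2 and 3, and bars are the mean and SD. Sec24d, Sec13 and Gosr2 lie below, and Tmed7 above, the wild type pair in every knockout library, while Tmed5, Lman1 and Kdelr3 are high in knockout libraries 2 and 3.

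Among the cargo receptors, Lman1, the mannose lectin known as ERGIC-53, had signals of 3635, 9853, 9423, 4009 and 2944 in knockout libraries 1 to 5, against 2571 and 3707 in wild type libraries 1 and 2. Libraries 2 and 3 were far above all others. The remaining knockout values all lay above wild type library 1, and of these only library 4 lay above wild type library 2. The difference was 0.76 (SE 0.50, limma adjusted p = 0.602) and 0.18 without those libraries. All 4 tested Lman1 probe sets were positive, by 0.33 to 1.5. Mcfd2, the calcium-binding partner of Lman1 in carrying coagulation factors, differed less, with signals of 1742 to 2914 in knockout libraries, against 1908 and 2220.3 in wild type libraries and a difference of 0.07. It was again highest in libraries 2 and 3.

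Surf4, a multi-spanning receptor for soluble cargo, had signals of 2043, 4418, 4871, 1932 and 2169.6 in knockout libraries 1 to 5, against 3192 and 1318 in wild type libraries 1 and 2. The wild type libraries were themselves far apart, and the difference was 0.46 (SE 0.48, limma adjusted p = 0.723). Its 5 tested probe sets had differences of -0.03 to 0.64, and 3 of them carry the suffix (_x) that Affymetrix gives to probes able to bind other transcripts. The brightest probe sets of Lman1, Tmed7, Gosr2 and Stx5a carry the suffix _s, given to probe sets that match several transcripts. Lman2, the lectin VIP36, had a difference of 0.29 with signals of 2487 and 2227 in knockout libraries 2 and 3 and 872 to 903 in the other knockout libraries, against 1291 and 885 in wild type libraries. The 3 lower knockout values lay close to wild type library 2.

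The p24 family held the largest positive differences. With the brightest probe set of each gene, Tmed7 was the only cargo-handling member whose groups did not overlap (higher in the knockout, against 6.41% of all genes). It had signals of 2621, 4702, 4589, 2904 and 2869.6 in knockout libraries 1 to 5, against 1284 and 2488 in wild type libraries 1 and 2. Libraries 2 and 3 were the highest, and the other 3 knockout libraries also lay above wild type library 2, by smaller margins. The means were 3537 ± 1018 (SD, n = 5) in knockout libraries and 1886 ± 851 (SD, n = 2) in wild type libraries. The difference was 0.93 (SE 0.36, limma adjusted p = 0.589) with a 95% confidence interval of 0.13 to 1.73, and 0.64 without libraries 2 and 3. With a lone wild type library it was 0.46 or 1.40. Its 4 tested probe sets differed by 0.71 to 0.94, but not all of them kept the groups apart. In the dimmest, knockout library 4 stood at 411.8, under both wild type values of 691.5 and 558.9. In another, knockout library 4 stood at 1848.6, under wild type library 2 at 1894. Among other cargo-handling genes, groups did not overlap for a dimmer probe set each of Lman1 (1.5), Lman2 (0.62) and Tmed5 (1.41), where every knockout value was higher. They overlapped for the other dimmer tested probe sets of Lman1 (0.33 and 1.23) and Tmed5 (1.06). No share over all probe sets is given here for such sets.

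Tmed5 had signals of 649, 3597, 3270.0, 1058 and 947 in knockout libraries 1 to 5, against 380.3 and 1116 in wild type libraries 1 and 2. The groups overlapped because wild type library 2 lay above 3 of the knockout libraries. The difference of 1.18 (SE 0.70, limma adjusted p = 0.592) was the largest of any member and was 0.40 without libraries 2 and 3, and all 3 tested probe sets were positive, by 1.06 to 1.41. Tmed10, encoding p23, had signals of 1636, 4103, 3769, 2089 and 1995 in knockout libraries 1 to 5, against 1717 and 1725.5 in wild type libraries 1 and 2. Its wild type values were nearly equal, knockout library 1 lay below them and the other 4 above, and the difference was 0.56 (SE 0.39, limma adjusted p = 0.623). The annotation also holds a Tmed10 pseudogene, and whether its transcripts add to this signal was not tested.

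Tmed9 had signals of 4902, 8095, 7352, 5355 and 5366 in knockout libraries 1 to 5, against 6005 and 4977 in wild type libraries 1 and 2, with libraries 2 and 3 highest and the rest close together. The difference was 0.16 (SE 0.27, limma adjusted p = 0.830). Tmed3 (-0.04) and Tmed4 (-0.16) were near or below 0 over all libraries and stood at -0.48 and -0.54 without libraries 2 and 3. For Tmed4 knockout libraries 1, 4 and 5, at 793 to 963, were all under the wild type values of 1179 and 1347. Tmed2 could not be followed. Its probe set with a sole symbol was too dim to be tested, at 25.2 to 54.3 in knockout libraries and 26.1 and 48.5 in wild type libraries, and 10 further probe sets that list Tmed2 or Tmed10 beside another gene were not used.

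All KDEL receptor genes were highest in knockout libraries 2 and 3, as were the other tested cargo-handling genes. Knockout libraries 1, 4 and 5 lay under both wild type values for Kdelr2 and Kdelr3, but between them for Kdelr1. Kdelr2 had signals of 2563, 6763, 6328, 2758 and 2782 in knockout libraries 1 to 5, against 4359.6 and 3017 in wild type libraries 1 and 2. Its values in knockout libraries 1, 4 and 5 were under both wild type values, and the difference of 0.08 (SE 0.45, limma adjusted p = 0.948) was -0.42 without libraries 2 and 3. Its dimmer probe set had the opposite sign, at -0.17, and stood at -0.77 without them (limma adjusted p = 0.820). Kdelr1 had signals of 1873, 4789.7, 4307, 1775 and 1719 in knockout libraries 1 to 5, against 2323 and 1556 in wild type libraries 1 and 2. Its difference was 0.45 (SE 0.47, limma adjusted p = 0.727), or -0.09 without them. For Kdelr3, whose signals stand beside its promoter, the difference was 0.36 (SE 0.70, limma adjusted p = 0.850) and -0.50 without them. Its knockout libraries 1, 4 and 5, at 194 to 344, were all under both wild type values, library 5 by a narrow margin. In neither fit did a KDEL receptor pass the test.

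The SNAREs that fuse these vesicles with the Golgi or the ER all had negative differences with their brightest probe set. Gosr2, also called membrin, had signals of 1293, 786.5, 754, 1906 and 1451 in knockout libraries 1 to 5, against 2082 and 2078 in wild type libraries 1 and 2. No knockout library reached the closely matched wild type values, libraries 2 and 3 were lowest, and the difference was -0.83 (SE 0.38, limma adjusted p = 0.589). Its dimmer probe set differed by -1.66 (limma adjusted p = 0.575 over probe sets), where wild type library 1 stood at 401.6 and the other 6 libraries at 23.2 to 118.1. Stx5a, encoding syntaxin 5, had signals of 1315, 1372, 1350.1, 1347.5 and 1234 in knockout libraries 1 to 5, against 1634.5 and 1582.5 in wild type libraries 1 and 2. Its knockout values were tightly grouped below the wild type values, and the difference of -0.28 (SE 0.23, limma adjusted p = 0.664) was -0.31 without libraries 2 and 3. Its dimmer probe set had a difference of 0.084 with overlapping groups. Sec22b (-0.67) and Bet1 (-0.09) overlapped between groups, and for each a dimmer probe set had the opposite sign (0.11 and 0.70).

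Across roles, with the brightest probe set of each gene, every knockout value was under both wild type values for 8 of 35 members, against 7.44% of all genes. They were Copb2, Copz1, Sec23b, Sec24c, Sec24d, Sec13, Gosr2 and Stx5a. Every knockout value was above for 2, Arcn1 and Tmed7, against 6.41%. Of the 8 lower members 6 were coat subunits and 2 SNAREs. Knockout libraries 1, 4 and 5 alone were under both wild type values for 12 of 35 members, against 10.8% of all genes, and above for 2, against 10.4%. The 12 hold the same 8 genes by construction, since these 3 libraries are part of the knockout group. The others were Sar1a, Tmed4, Kdelr2 and Kdelr3. In these 3 libraries 26 of 35 members were negative, against 6701 of all 13120 genes. The median difference was -0.24, beside -0.01 over all genes. Without libraries 2 and 3 limma called 0 of the 35 members (lowest adjusted p = 0.770), against 0.00762% of all genes. In that fit 1 member had an unadjusted limma p under 0.05, against 812 of all 13120 genes. With the 2 libraries as a batch term limma called 0 members, against 0.0534% of all genes. There 3 members had an unadjusted limma p under 0.05, a count whose share over all genes is not given here.

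**Figure D4:**
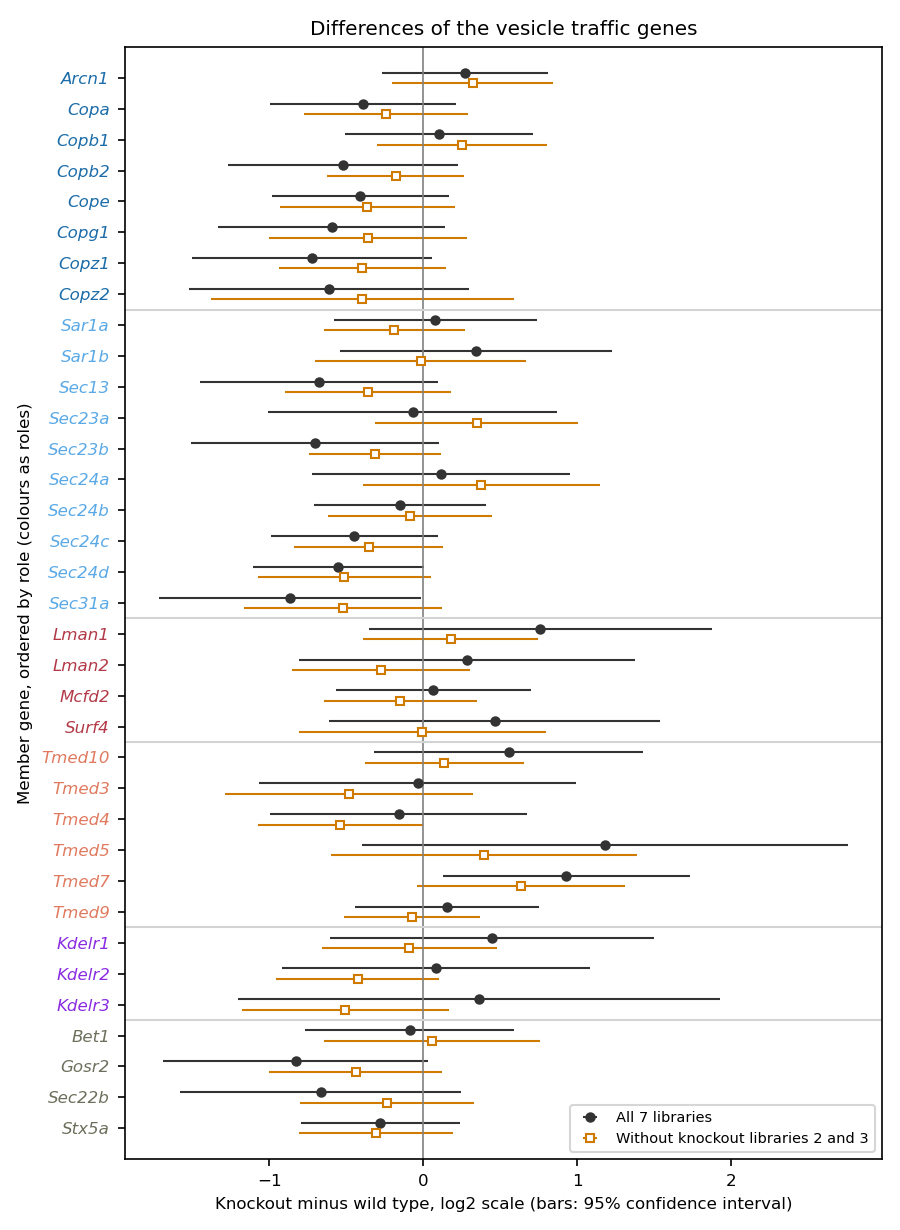
Log2 difference, knockout minus wild type, of each tested member with its 95% confidence interval, from all 7 libraries (filled circles) and without knockout libraries 2 and 3 (open squares). Intervals of Sec31a and Tmed7 lie off 0 over all libraries, no adjusted p passes, and the KDEL receptors change sign between the fits.

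Where a gene had several probe sets, they mostly agreed in direction. Of 18 members with over 1 tested probe set, 11 had differences of 1 sign and 7 of both signs. In 2 of the 7, Copz1 and Sec24b, the opposing values were at least 1 apart on the log2 scale, and in both the dimmer probe set was the positive one. Lman1, Tmed5 and Tmed7, each with 3 or more tested probe sets, were positive throughout.

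**Figure D5:**
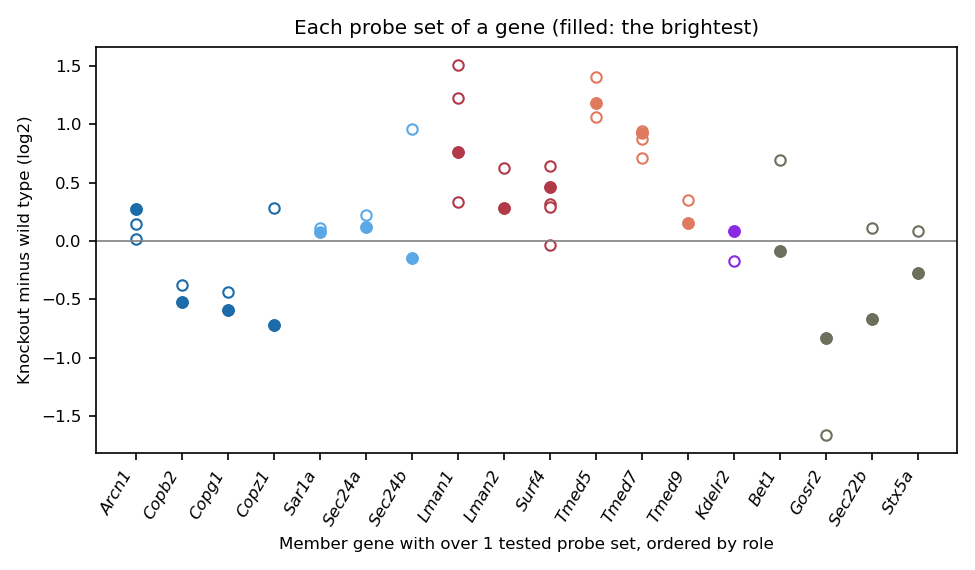
Log2 difference, knockout minus wild type, of every tested probe set (circles) of the 18 members that have over 1, with the brightest filled and colours by role. The 11 probe sets of Lman1, Tmed5 and Tmed7 all lie above 0, and those of Copz1 and Sec24b lie on both sides.

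Further genes of the early secretory pathway, a list of 61 with 54 tested, had differences in both directions. None passed the limma test (0 of 54, lowest adjusted p = 0.589), and 3 had an unadjusted p under 0.05, against 8.06% of all genes. The median difference was -0.08, with 23 positive and 31 negative. The lowest were Sec23ip, which binds Sec23 at ER exit sites (-1.05), the SNARE Ykt6 (-0.82) and the GTPase Arf5 (-0.79). Sec23ip had signals of 1639, 1101, 1165, 1487.5 and 1600.2 in knockout libraries 1 to 5, against 2820.5 and 2953 in wild type libraries 1 and 2, without overlap. Its values in knockout libraries 1, 4 and 5 were also well below the wild type pair. The highest were Ergic2 (1.33) and Ergic1 (1.004), membrane proteins of the ER-Golgi intermediate compartment, and Mia3 (0.98), the receptor TANGO1 that loads collagen into COPII carriers. Mia3 had signals of 1394, 3889, 4171, 1553 and 1770.0 in knockout libraries 1 to 5, against 902 and 1464 in wild type libraries 1 and 2, and as with the receptors above, libraries 2 and 3 stood highest. Over the list, both libraries lay above the other 5 for 18 of the 54 genes and below for 16, near the shares over all genes (24.6% and 26%).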

How the data were processed

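Gene expression was measured on Affymetrix mouse arrays in 5 knockout and 2 wild type libraries, grouped by their titles. The values deposited by the authors are linear intensities of each probe set. Per the submitters' processing notes they were made with MAS5 (version not given in the sources used here). Their mean, trimmed by 2% at each end, was 500.0 on every array, and array medians of 92.6 to 124.9 called for no further scaling. No detection calls were used.

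Signals were converted to log2(signal + 20.2), the 20th percentile of all values, so that fold changes of dim probe sets are understated. Control probe sets (64) were set aside and the 27022 above the 40th percentile of mean log2 signal were tested with limma 3.58.1 in R 4.3.3 (lmFit, eBayes with trend, two-sided, Benjamini-Hochberg adjustment over the whole table). For each gene the brightest probe set with 1 symbol was taken, which gave 13120 genes. Symbols came from the platform annotation (34958 probe sets with 1 symbol, 932 with several, 9211 with none), updated through RefSeq for 34754. The fits were tested on simulated data. The arrays' number limits the precision, and p-values measure the spread between these libraries.

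Members, gene lists and alternatives were chosen with earlier results of these data known. Signals by library were given, by rule, for members without overlap between groups, the 6 largest differences, the 2 brightest members of each role and those with probe sets of opposite sign at least 1 apart. Kdelr3, Copb1 and Tmed10 were added for their promoters. Mia3 and the markers Dcn, Fn1, Acta2, Sparc, Pou5f1 and Tdgf1 were picked after their values were seen. The 3 largest differences in each direction of the list of other pathway genes were named. Alternatives changed the normalization, filter, pseudocount, variance trend, array weights and choice of probe set, used the replicate number as a block, and left out each library or both knockout libraries 2 and 3. Figures were drawn with matplotlib 3.10.9.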

Additional observations from a re-analysis of the deposited data

Results flagged for a closer look

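A library far from the other 4 of the knockout group was found for 2 of the 35 tested members, where chance alone flags about 1 in 20 groups. Arcn1, the delta subunit of the COPI coat, had a signal of 5540.5 in knockout library 5 and 3912 to 4072 in the other knockout libraries, against 3377 and 3660.4 in wild type libraries. Cope, the epsilon subunit, had a signal of 2809 in knockout library 1 and 2157 to 2276 in the other knockout libraries, against 3703 and 2577.5 in wild type libraries, so that this library lay between the wild type values.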

How the results depend on the processing

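Under all 20 alternatives 0 member genes were called, and under the 18 that apply to probe sets 0 member probe sets were called. With both wild type libraries kept, the lowest limma adjusted p of a member gene was 0.471, without knockout library 1. An unadjusted limma p under 0.05 was found for 0 to 6 member genes, the 6 without knockout library 4. Shares over all genes are not given here, save for the fit without knockout libraries 2 and 3. The median difference over member genes, -0.07, was -0.17 with quantile normalization, -0.18 with array medians centred (which moved the median of all genes to -0.12), 0.067 with the brightest probe set free of an _s, _x or _a suffix, and -0.24 with knockout libraries 2 and 3 left out or as a batch term. Leaving out each library gave -0.17 to -0.034. With a lone wild type library 7 of 35 members moved by more than the knockout SD, and 5 (without library 1) or 4 (without library 2) changed sign. Sec31a then stood at -0.49 or -1.24, Copg1 at -0.21 or -0.98 and Surf4 at 1.10 or -0.17. The median of the coat subunits was negative under every alternative (-0.56 to -0.28), and that of the cargo receptors, p24 and KDEL receptor genes was 0.02 to 0.58 except without libraries 2 and 3 or with them as a batch (-0.09), where 11 of 35 members changed sign. Calr had -3.78 to -3.52 with each library left out, uncalled with a lone wild type library, which is assumed to vary like the knockout group. The groups share replicate numbers 1 and 2, but the labels do not say that a number marks a shared culture or day, and same-numbered libraries deviated from their group means at r = 0.11 and -0.01. With the replicate number as a block the median was -0.06, 0 members were called and 2 changed sign.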
